A study of Homo sapiens with 16 samples.

Results

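Open chromatin at day 60 was compared between 2 libraries of SOX2-EGFP+ progenitors and 2 libraries of hSyn1-dTomato+ neurons, 4 of the 16 libraries of the series. The measurement was ATAC-seq, in which the transposase Tn5 tags accessible DNA, here in isolated nuclei treated for 30 minutes. All 16 libraries came from brain organoids enriched for dorsal telencephalon and grown from H9, a long-established line of human embryonic stem cells that the labels give as WT and that carried both reporters. In these cells P2A-EGFP took the place of the stop codon on 1 SOX2 allele, and dTomato under the human SYN1 promoter sat at AAVS1, a site within PPP1R12C. The sort therefore reads 2 reporters, and the cells left unsorted in the organoid were not analysed here. The 12 other libraries are the same populations at days 40, 90 and 120, with 2 of each, and were used here to estimate the spread and to follow the day 60 regions. Nothing in the labels tells whether replicate libraries had separate cultures behind them, so the tests measure only how far these libraries spread, and that spread may be technical.

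SOX2 is a transcription factor that keeps neural stem cells undifferentiated, and in the developing cortex it marks radial glia, the progenitors that line the ventricle. Radial glia divide to give intermediate progenitors and neurons, and newborn neurons switch on genes for axons, synapses and ion channels. Promoters of many genes are accessible in most cell types, whereas enhancers, which lie within introns and between genes, are more often open in 1 cell type.

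The progenitor lists held 111485 peaks covering 87.2 Mb in replicate 1 and 127772 peaks covering 77.6 Mb in replicate 2. The neuron lists held 115950 peaks covering 83.4 Mb in replicate 1 and 80345 peaks covering 54.8 Mb in replicate 2. Neuron replicate 2 was thus the shortest list, and the read depth behind each list is unknown. Median peak width was 632 and 469 bases in the progenitor libraries, against 571 and 548 bases in the neuron libraries. The Jaccard index, the share of covered bases common to 2 lists, was 0.559 for the progenitor pair and 0.440 for the neuron pair. It lay between 0.289 and 0.332 for the 4 mixed pairs, so both same-population pairs stood above every mixed pair. Replicates of day 60 were not always each other's nearest list. Progenitor replicate 1 was nearest to progenitor day 90 replicate 2, at 0.621, and neuron replicates 1 and 2 to neuron day 90 replicate 2, at 0.536 and 0.442, while progenitor replicate 2 was nearest to its own replicate. With 2 libraries against 2, an exact permutation test of 1 value cannot go below p = 0.333.

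The 6 promoter windows below differed between the populations at day 60, and each is printed from 250 bases before to 50 bases after the RefSeq gene start (GRCh38.p14, strand of the gene). NES, FAM107A and ACSBG1 had a peak there in both progenitor lists and in neither neuron list, and TCF4, ADORA1 and SLC8A1 the reverse. NES encodes the radial glial filament protein nestin, FAM107A and ACSBG1 are used as markers of outer radial glia, and TCF4 is a partner of proneural factors. ADORA1 encodes the adenosine A1 receptor and SLC8A1 a sodium-calcium exchanger. Capitals mark matches on either strand to CANNTG, the E-box bound by proneural factors, and to ACAAT, the core of many SOX sites.
NES, chr1:156677358-156677657, minus strand: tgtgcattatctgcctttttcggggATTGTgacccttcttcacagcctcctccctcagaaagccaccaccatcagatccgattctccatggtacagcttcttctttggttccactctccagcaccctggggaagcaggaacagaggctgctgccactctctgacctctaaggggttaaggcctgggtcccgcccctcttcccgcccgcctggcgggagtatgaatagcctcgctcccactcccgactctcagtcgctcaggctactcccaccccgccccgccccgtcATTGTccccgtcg
FAM107A, chr3:58627561-58627860, minus strand: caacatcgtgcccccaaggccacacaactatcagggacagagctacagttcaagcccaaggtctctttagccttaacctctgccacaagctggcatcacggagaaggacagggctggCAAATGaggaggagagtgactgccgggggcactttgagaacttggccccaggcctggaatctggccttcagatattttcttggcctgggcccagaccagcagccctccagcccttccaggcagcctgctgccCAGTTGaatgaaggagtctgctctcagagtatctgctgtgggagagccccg
ACSBG1, chr15:78234516-78234815, minus strand: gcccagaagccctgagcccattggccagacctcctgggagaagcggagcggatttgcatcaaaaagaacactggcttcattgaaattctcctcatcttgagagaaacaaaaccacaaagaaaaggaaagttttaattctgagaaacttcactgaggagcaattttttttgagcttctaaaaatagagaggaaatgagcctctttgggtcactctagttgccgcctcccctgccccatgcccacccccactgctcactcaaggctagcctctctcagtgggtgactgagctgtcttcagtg
TCF4, chr18:55635908-55636207, minus strand: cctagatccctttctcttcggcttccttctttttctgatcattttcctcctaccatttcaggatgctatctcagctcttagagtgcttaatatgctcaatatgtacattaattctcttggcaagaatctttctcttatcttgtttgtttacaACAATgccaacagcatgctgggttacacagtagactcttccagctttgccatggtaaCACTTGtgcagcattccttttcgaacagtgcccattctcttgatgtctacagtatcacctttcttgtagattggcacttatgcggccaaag
ADORA1, chr1:203127476-203127775, plus strand: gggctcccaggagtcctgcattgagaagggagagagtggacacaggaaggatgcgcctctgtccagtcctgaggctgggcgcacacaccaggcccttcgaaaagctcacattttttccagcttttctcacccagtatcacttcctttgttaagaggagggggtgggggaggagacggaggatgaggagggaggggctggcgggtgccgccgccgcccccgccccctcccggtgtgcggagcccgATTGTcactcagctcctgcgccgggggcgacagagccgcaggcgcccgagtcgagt
SLC8A1, chr2:40512386-40512685, minus strand: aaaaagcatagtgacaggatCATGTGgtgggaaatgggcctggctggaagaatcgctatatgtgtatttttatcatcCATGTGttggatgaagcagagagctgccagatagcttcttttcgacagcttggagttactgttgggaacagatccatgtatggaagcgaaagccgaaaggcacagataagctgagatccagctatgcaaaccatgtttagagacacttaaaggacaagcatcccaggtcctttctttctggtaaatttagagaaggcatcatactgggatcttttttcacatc

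The NES window held 2 SOX cores and no E-box, FAM107A held 2 E-boxes, and ACSBG1 neither motif. TCF4 held 1 of each, ADORA1 1 SOX core and SLC8A1 2 E-boxes. Over all 15812 promoter windows, 64.5% held CANNTG, against 58.8% of the windows with peaks in progenitors only and 66.7% of those with peaks in neurons only. ACAAT was found in 22.4% of progenitor-only windows and in 21.2% of neuron-only windows, against 21.0% of all windows. Presence of either motif thus lay near the level of all promoters, and a match is a string of letters and not evidence of binding. Base composition was further apart. The median GC content was 64.7% in progenitor-only windows, 53.8% in neuron-only windows and 62.7% over all windows, with a median of 21, 7 and 22 CpG dinucleotides in the same order.

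Merging the 4 lists gave 202507 regions, and most did not follow the populations. A peak in all 4 libraries was found in 43179 regions (21.3%). Peaks in both progenitor lists without one in either neuron list were found in 33584 regions (16.6%), out of lists of 111485 and 127772 peaks, against 16580 regions (8.19%) with the reverse pattern, out of lists of 115950 and 80345 peaks. A peak in 1 progenitor library alone was found in 40698 regions and a peak in 1 neuron library alone in 41726. The excess on the progenitor side was smaller with equal list lengths. With all 4 lists cut to the 80345 strongest peaks the counts were 24508 progenitor-only and 19091 neuron-only regions. Without neuron replicate 2 the counts were 36451 and 49586. The order turned, but the neuron side then needed a peak in 1 list and the progenitor side in 2. Without progenitor replicate 1 the counts were 63507 and 20078, and without neuron replicate 1 they were 45029 and 26231. There too the side that lost a library needed a peak in 1 list only.

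**Figure D1:**
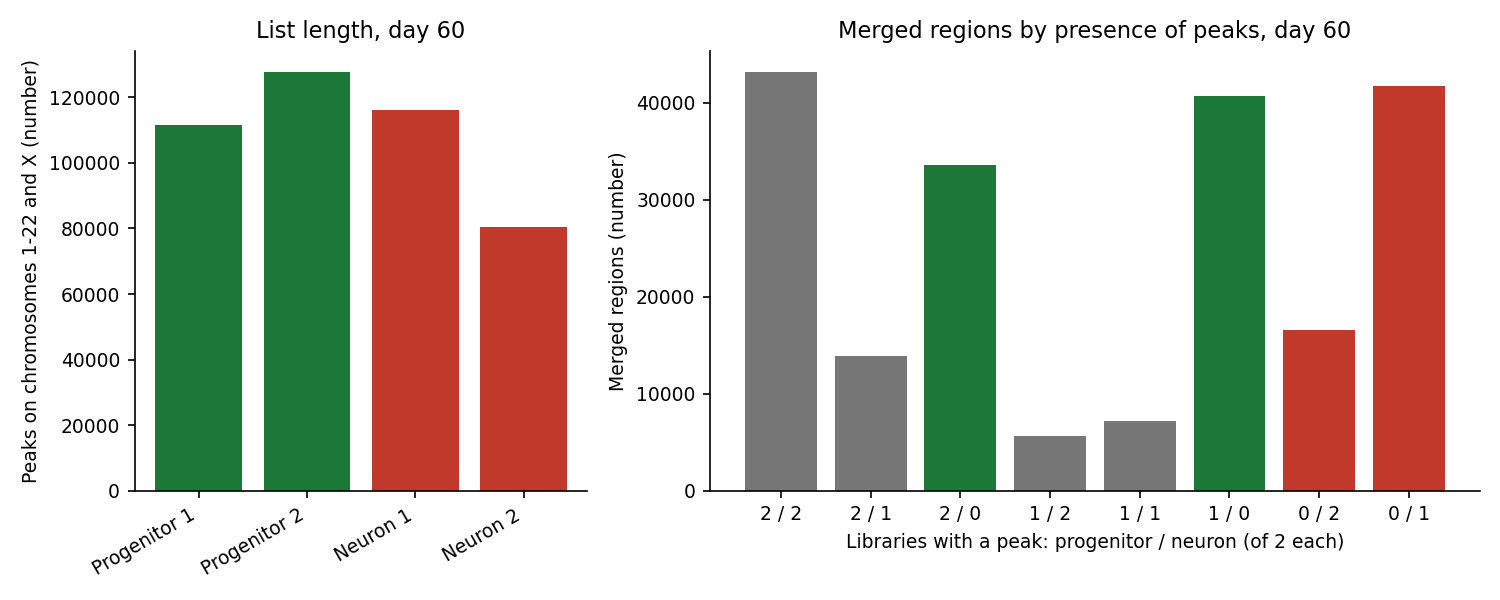
Peaks used per day 60 list (left bars) and merged regions by the number of progenitor and neuron libraries with a peak (right bars), with green for progenitors alone, red for neurons alone and grey for regions found in both populations. The 33584 regions found in 2 progenitor libraries and no neuron library outnumber the 16580 of the reverse pattern, and the neuron side includes the shortest list.

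Regions found in 1 population only lay away from promoters. Only 0.795% of progenitor-only regions and 0.229% of neuron-only regions overlapped a promoter window, against 21.1% of regions found in all 4 libraries and 5.03% of all merged regions. Outside protein-coding genes lay 50% of progenitor-only and 50.2% of neuron-only regions, against 34.4% of the regions found in all 4. The median distance to the nearest annotated start was 100 kb for progenitor-only and 117 kb for neuron-only regions, against 35.9 kb for regions found in all 4. Chromosome 8 had no promoter windows, so its 9927 merged regions were left out of these distances. In the promoter shares above they count as not overlapping a window. Median widths were 638 bases for progenitor-only and 697 bases for neuron-only regions, against 1236 bases for the shared regions. Across chromosomes the progenitor-only share ran between 9.39% on chromosome 19 and 20.2% on chromosome X. The neuron-only share ran between 3.21% on chromosome 19 and 10.5% on chromosome 4.

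Ranked by the authors' −log10 q within each list, the 6 strongest progenitor-only regions stood at or above percentile 99.7 in both lists. One lay inside UNC5C, a netrin receptor gene (chromosome 4, 95190629 to 95191558, hg38), with 930 and 906 bases of peak in progenitors and none in neurons. Others lay inside TMEM260 (chromosome 14, 56648390 to 56649176) and CUBN (chromosome 10, 16986336 to 16987537). The 3 intergenic ones were nearest to ANKRD40CL at 29711 bases, GRIN2B at 157010 bases and POU3F2 at 715544 bases. All 6 had a peak in 6 of 6 progenitor libraries of the other days, but also in 1 to 6 of 6 neuron libraries. The lowest of these counts was that of the region nearest to ANKRD40CL, with 1 neuron library, and the highest that of the CUBN region, with 6.

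The 6 strongest neuron-only regions stood at or above percentile 98.6 in both neuron lists. They lay inside GNG4, a G-protein gamma subunit gene (chromosome 1, 235582932 to 235583902), ADAMTS9 (chromosome 3, 64539328 to 64540179), the phosphodiesterase gene PDE4D (chromosome 5, 60339454 to 60340478) and SAMD5 (chromosome 6, 147589536 to 147590381). The other 2 were intergenic, 208397 bases from SPOCK3 and 1595547 bases from IFTAP. On the other days these 6 had peaks in 4 to 6 of 6 neuron libraries and in 0 to 4 of 6 progenitor libraries. The region near IFTAP (chromosome 11, 38254819 to 38255711) had 4 neuron and 0 progenitor libraries.

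Near list genes, the strongest population-only region was progenitor-only for 18 of 23 lists (78.3%) and neuron-only for 5, beside 66.9% progenitor-only among all 50164 population-only regions, a share that moves with list length as above. An NFIA region (chromosome 1, 61287009 to 61288279), inside a gene of the gliogenic NFI factors, had 1059 and 1229 bases in progenitors, none in neurons, and peaks in 6 of 6 progenitor and 0 of 6 neuron libraries of the other days. A GAD2 region (chromosome 10, 26291616 to 26293016), in a gene for GABA synthesis, had 1109 and 1401 bases in progenitors and was found in 6 of 6 progenitor and 2 of 6 neuron libraries elsewhere. A GRIN2B region (chromosome 12, 13727405 to 13728443), in an NMDA receptor subunit gene, had the same counts, with 1039 and 815 bases in day 60 progenitors. Inside the neuronal marker gene RBFOX3, 79165143 to 79165825 on chromosome 17 was open in day 60 progenitors with 683 and 250 bases. This region was found in 6 of 6 progenitor and 4 of 6 neuron libraries elsewhere. The regions inside GLI3 and CDK6, also progenitor-only at day 60, were found in 6 of 6 libraries of each population elsewhere. On the neuron side, a region inside LATS2, a Hippo kinase gene (chromosome 13, 21033277 to 21034269), had 732 and 950 bases in neurons and was found in 4 of 6 progenitor and 6 of 6 neuron libraries elsewhere. A region 3882 bases from PECAM1, an endothelial adhesion gene, had 504 and 449 bases in neurons.

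The 12 libraries of the other days, which did not choose these regions, separated by population over them. Progenitor-only regions had a peak in 37.0% to 84.0% of cases in the 6 progenitor libraries, with a median of 70.2%, and in 12% to 36.5% in the 6 neuron libraries, with a median of 21.3%. Neuron-only regions had one in 3.91% to 25.7% of cases in progenitor libraries, with a median of 11.5%, and in 35.4% to 86.6% in neuron libraries, with a median of 54.2%. No progenitor library overlapped the neuron libraries in either share. The first share minus the second averaged 53.8 ± 12.5 percentage points in progenitor libraries and −31.8 ± 24.3 in neuron libraries (SD, n = 6 each), a difference of 85.6 points (two-sided exact permutation p = 0.00216, the smallest that 6 against 6 can give). The difference was 77.7 points at day 40, 113 at day 90 and 66.5 at day 120. The 2 libraries of a group are not independent of each other in the way this test assumes.

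Neuron day 40 replicate 2 was the weakest of the 12, with a value of −0.12, since it held 35.3% of the progenitor-only and 35.4% of the neuron-only regions. Neuron day 90 replicate 2 was the strongest of the neuron libraries and held 86.6% of the neuron-only regions. As a comparison, regions found in all 4 day 60 libraries had a peak in 88.4% ± 10.3 of cases in progenitor libraries and 93.0% ± 3.99 in neuron libraries (SD, n = 6 each, exact permutation p = 0.374). Full separation was rare. Of the progenitor-only regions 1970 (5.87%) had a peak in 6 of 6 progenitor and 0 of 6 neuron libraries of the other days, and 800 (2.38%) had none in any of the 12. Of the neuron-only regions 567 (3.42%) had the mirror pattern and 661 (3.99%) had none.

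**Figure D2:**
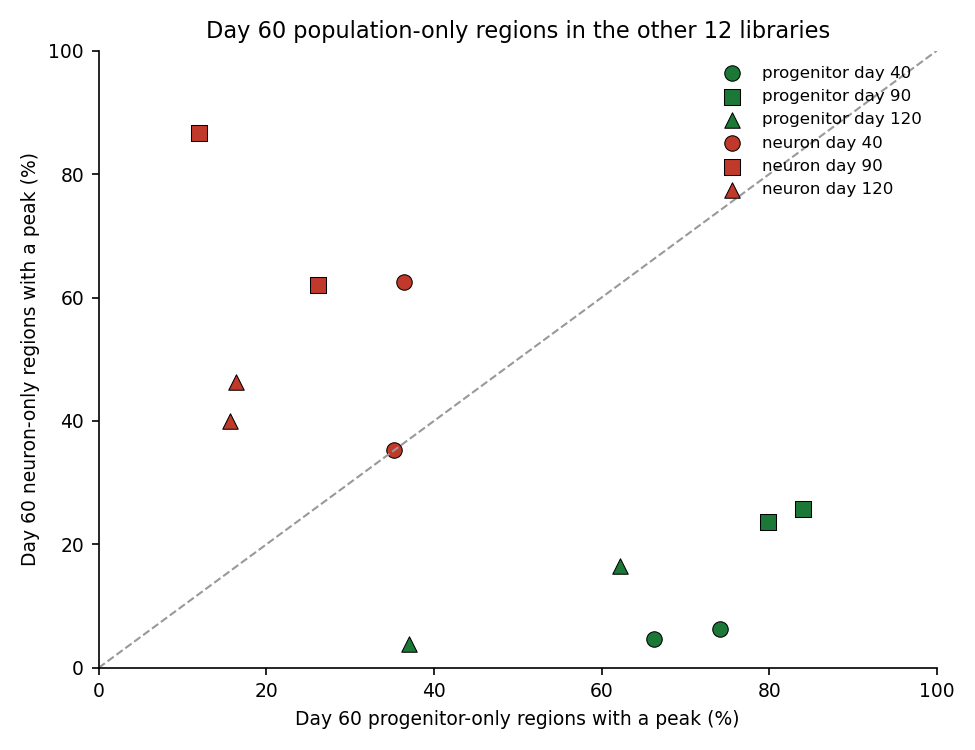
Share of day 60 progenitor-only regions (horizontal axis, percent) and neuron-only regions (vertical axis, percent) with a peak in each of the 12 libraries of days 40 (circles), 90 (squares) and 120 (triangles), green for progenitors and red for neurons, with the dashed line at equal shares. The progenitor libraries lie below the line and 5 of the 6 neuron libraries above it, with neuron day 40 replicate 2 on it.

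Within the 43179 regions found in all 4 libraries, peak width also differed, but in a direction that depended on scaling. Taken as a share of the library's covered bases, 6270 regions (14.5%) were wider in both progenitor libraries than in both neuron libraries, and 13769 (31.9%) the reverse. In bases, 12026 (27.9%) were wider in progenitors and 8225 (19.0%) in neurons.

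At promoters, progenitor-only peaks were more frequent than neuron-only peaks. Of 15812 promoter windows, 9134 had a peak in all 4 libraries, 539 (3.41%) in progenitors only (both of their lists and no neuron list), and 66 (0.417%) in neurons only, from the list lengths given above. With equal list lengths the counts were 464 and 95. Leaving out 1 library at a time gave 728 to 897 and 108 to 168, since 1 library less then has to hold or to lack a peak. The highest counts came without neuron replicate 1 for progenitors and without neuron replicate 2 for neurons. The windows are single annotated starts, so a gene may also be open at another start. A window without a peak in 1 population can also lie in a merged region that holds such a peak beside the window. The population-only regions that overlapped a window (0.795% of 33584 and 0.229% of 16580) were fewer than the 539 and 66 windows. Neighbouring windows can share a region, and the windows in regions open in both populations were not counted.

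Fewer radial glia promoters had a peak in the neuron lists than in the progenitor lists. Of 16 radial glia members with a window, 81.2% and 87.5% had a peak in the progenitor libraries, against 68.8% and 37.5% in the neuron libraries. Over all windows the shares were 67.8% and 66.8% in the progenitor libraries, against 62.6% and 61.2% in the neuron libraries. The lowest radial glia share was thus that of neuron replicate 2, the shortest list. Progenitor-only members of this list were NES, the growth factor receptor gene FGFR2 and the transcription factor gene SOX3, each with all 300 bases covered in both progenitor libraries and 0 in both neuron libraries. On the other days the NES window had a peak in 4 of 6 progenitor and 0 of 6 neuron libraries, SOX3 in 5 and 2, and FGFR2 in 6 and 4. Among outer radial glia genes, FAM107A had 213 and 223 bases in progenitors and 0 in neurons, and ACSBG1 had 300 and 198 against 0. Both were found in 6 of 6 progenitor and 0 of 6 neuron libraries of the other days, a pattern shared by 11 of the 539 progenitor-only windows.

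The other list genes with progenitor-only windows were the Notch effector HEYL, with 34 and 82 bases, the mesenchymal factor FOXC1, with 182 and 177, the WNT agonist gene RSPO3, with 300 in each, and VAMP2, a synaptic vesicle gene, also with 300 in each. FOXC1, RSPO3 and VAMP2 had 0 progenitor-only merged regions in the gene and 20 kb on either side. Their windows thus lay in merged regions that also held a neuron peak outside the window. VAMP2 had a peak in 5 of 6 progenitor and 6 of 6 neuron libraries of the other days, so the other neuron libraries all had it. In all, 9 list genes were progenitor-only and 2 neuron-only, beside 3.41% and 0.417% of all 15812 windows. The lists hold 270 entries, not all of them with a window, and these counts were not tested against those shares. The neuron-only ones were TCF4, with 290 and 237 bases in neurons against 0 in progenitors, and the guidance gene SLIT1, with 300 and 109. TCF4 had a peak on other days in 0 of 6 progenitor and 2 of 6 neuron libraries, and SLIT1 in 3 and 5. Over the whole locus neither passed, with −0.28 ± 0.17 at TCF4 and −0.25 ± 0.17 at SLIT1 (limma adjusted p = 0.384 and 0.432). TCF4 had 11 progenitor-only and 5 neuron-only merged regions there, and SLIT1 6 and 3. The strongest population-only region of the list with TCF4 was progenitor-only and lay inside TCF4.

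Of the 66 neuron-only windows, 8 had the same split in all 12 other libraries, namely GPR61, ADORA1, SLC8A1, POU4F3, GPR26, DLGAP1, ST8SIA3 and NTSR1. ADORA1 and SLC8A1 were covered over all 300 bases in both neuron libraries and over 0 in both progenitor libraries. DLGAP1, a postsynaptic scaffold gene, had 232 and 142 bases in neurons. GPR26 had 104 and 300 and the neurotensin receptor gene NTSR1 114 and 32, while POU4F3 was touched by only 9 and 10 bases. Over the whole locus 1 of the 8 passed, ST8SIA3, a sialyltransferase gene, with 0.730 and 0.553 kb in progenitors and 2.24 and 2.19 kb in neurons (−1.54 ± 0.33, limma adjusted p = 0.00601). Its call was lost without progenitor replicate 1, progenitor replicate 2 or neuron replicate 2 (0.0557, 0.0517 and 0.084), and with equal list lengths its difference was −0.23 (adjusted p = 0.747). The other 7 had adjusted p between 0.0832 and 0.943. The ADORA1 locus had 6.96 and 5.78 kb in progenitors and 6.12 and 3.02 kb in neurons, and the SLC8A1 locus 20.6 and 13.1 kb in progenitors and 16.7 and 11.3 kb in neurons. These genes were chosen after their values were seen.

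MicroRNA genes with population-only peaks were examined with 500 bases on either side of each hairpin, and some are printed as RefSeq mature sequences, with the seed (bases 2 to 8) in capitals, to show which share a seed. The choice leaves out others of the same clusters and other hairpins of neural microRNAs, such as MIR128-1, which had 51 and 93 bases of peak in progenitors and 0 in neurons. MicroRNAs are short RNAs that repress messenger RNAs matched by the seed. The miR-302 family is known from pluripotent cells, the miR-17-92 family from dividing progenitors, miR-137 from neural differentiation and miR-29 from maturing neurons and glia. All but the last 2 sequences come from hairpins with peaks in progenitors only.
hsa-miR-302a-3p: uAAGUGCUuccauguuuugguga
hsa-miR-302c-3p: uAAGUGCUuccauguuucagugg
hsa-miR-302d-3p: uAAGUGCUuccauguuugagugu
hsa-miR-367-3p: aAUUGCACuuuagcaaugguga
hsa-miR-92a-3p: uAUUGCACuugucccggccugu
hsa-miR-363-3p: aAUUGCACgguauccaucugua
hsa-miR-29a-3p: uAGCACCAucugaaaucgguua
hsa-miR-29b-3p: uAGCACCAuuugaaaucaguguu
hsa-miR-137-3p: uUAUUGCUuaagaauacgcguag
hsa-miR-591: aGACCAUGgguucucauugu
hsa-miR-4276: cUCAGUGAcucaugugc

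The 3 miR-302 sequences share the seed AAGUGCU, miR-29a and miR-29b share AGCACCA, and miR-367, miR-92a and miR-363 share AUUGCAC although they come from 2 clusters on different chromosomes. Of 1558 hairpins, 178 had a peak in all 4 libraries, 40 (2.57%) in progenitors only and 13 (0.834%) the reverse. The 40 hairpins lay on 34 merged regions, so clustered hairpins share their peaks. With equal list lengths the counts were 34 and 19. Leaving out neuron replicate 2 gave 51 and 58. The order turned, but a neuron-only hairpin then needed a peak in 1 list and a progenitor-only one in 2. Leaving out progenitor replicate 1, progenitor replicate 2 or neuron replicate 1 gave 83, 69 or 63 progenitor-only hairpins. Without neuron replicate 1 there were 27 neuron-only hairpins.

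Peaks at the MIR302 and MIR367 cluster on chromosome 4 (112647874 to 112648430) covered 320 and 551 bases at MIR367 and 113 and 154 at MIR302C in progenitors, and 0 in neurons. On the other days 2 or 3 of 6 progenitor libraries and 1 of 6 neuron libraries had a peak at these 4 hairpins. The cluster on chromosome X with MIR106A, MIR18B, MIR19B2, MIR92A2 and MIR363 had 122 and 47 bases at MIR363 and 418 and 380 at MIR106A in progenitors, 0 in neurons, and a peak in 2 of 6 progenitor and 0 of 6 neuron libraries elsewhere. MIR29A and MIR29B1 on chromosome 7 had 175 and 191 bases and 371 and 373 bases in progenitors, 0 in neurons, and a peak in 6 of 6 progenitor and 1 of 6 neuron libraries elsewhere. MIR137 on chromosome 1 had 484 and 890 bases in progenitors and 0 in neurons, with 5 and 3 of 6 libraries elsewhere. In neurons, MIR591 on chromosome 7 had 777 and 776 bases against 0 in progenitors, with 2 of 6 progenitor and 6 of 6 neuron libraries elsewhere. MIR4276 on chromosome 4 had 635 and 625 bases in neurons against 0 in progenitors. The hairpins named here were chosen after their values were seen, and an open hairpin does not show that its RNA is made.

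Covered bases were then summed over each protein-coding gene with 20 kb on either side and scaled to the library's total, which gave 18755 loci. Differences are on the log2 scale with a pseudocount of 500 bases, progenitors minus neurons, ± the SE of a limma fit over all 16 libraries, and p-values were adjusted over all loci by Benjamini-Hochberg. In progenitors 503 loci (2.68%) were higher and 629 (3.35%) lower than in neurons, with adjusted p below 0.05. The median difference over all loci was −0.12, and list medians are read against that value. Without scaling the median moved to 0.16 and the counts were 108 and 20, with 84.4% of the calls higher in progenitors in place of 44.4%, and with scaling to the median locus they were 682 and 401, or 63.0%. With a pseudocount of 2000 bases the counts were 186 and 368, or 33.6%. Leaving out 1 library left 131 and 146 without progenitor replicate 1, 183 and 232 without progenitor replicate 2, 379 and 472 without neuron replicate 1, and 313 and 196 without neuron replicate 2, which leaves 61.5% on the progenitor side. Of 59 calls of named loci, 15 held without scaling and 43 with scaling to the median locus, and none turned. In bulk nuclei a locus open in fewer cells and one less open per cell cannot be told apart.

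The loci behind the sort came first. SOX2 (chromosome 3, 181711925 to 181714436) had 13.3 and 9.78 kb of peaks in progenitors and 4.83 and 4.76 kb in neurons. Both progenitor libraries lay above both neuron libraries, with a difference of 0.88 ± 0.26 (limma adjusted p = 0.0444). The call was lost without progenitor replicate 1, progenitor replicate 2 or neuron replicate 1 (adjusted p = 0.296, 0.101 and 0.267). Around SOX2, 4 merged regions were progenitor-only and 1 neuron-only. SYN1, which codes for synapsin I of synaptic vesicles (chromosome X, 47571901 to 47619857), had 3.16 and 3.86 kb in progenitors and 3.35 and 2.42 kb in neurons, which overlap, and a difference of −0.03 ± 0.28 (adjusted p = 0.967). Its direction turned under several scalings. Reads from the inserted promoter and from the SYN1 gene cannot be told apart in these lists. PPP1R12C, the host gene of AAVS1, had 2.70 and 3.32 kb in progenitors and 3.0 and 3.19 kb in neurons, a difference of −0.32 ± 0.30 (adjusted p = 0.581). The sort was thus visible in covered bases at SOX2 but not at SYN1.

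The naming rule gave 12 loci with the greatest excess in progenitors. PCK1, the gluconeogenic enzyme gene (chromosome 20, 57561110 to 57568121), had 5.04 and 4.03 kb in progenitors and 0.215 and 0 kb in neurons, with 2.78 ± 0.43 (adjusted p = 0.000452). USP26, a deubiquitinase gene known from testis (chromosome X, 133023168 to 133097109), had 5.76 and 4.25 kb against 0 and 0.281 kb in neurons, with 2.84 ± 0.49 (adjusted p = 0.00095). SLCO1C1, a thyroid hormone transporter gene (chromosome 12, 20695332 to 20753386), had 3.81 and 2.45 kb in progenitors and was listed at 0 in both neuron libraries (adjusted p = 0.00463). TRABD2B, a protease gene that restrains WNT signalling (chromosome 1, 47760528 to 47997385), had 13.8 and 10.9 kb against 1.13 and 2.66 kb in neurons, with 10 progenitor-only regions and 0 neuron-only regions. MET, the hepatocyte growth factor receptor gene (chromosome 7, 116672196 to 116798377), had 7.65 and 7.09 kb against 1.47 and 0.709 kb in neurons, with 2.07 ± 0.26 (adjusted p = 5.92e-05). The tyrosine kinase gene LYN had 10.4 and 8.68 kb against 1.35 and 2.13 kb. The remaining 6 were KLHL38, LRRC17, STEAP3, SPARCL1, GRAMD2B and C10orf90, with differences between 1.89 and 2.19.

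In all 12 of these loci both progenitor libraries stood above both neuron libraries, as the naming rule required. The calls of SLCO1C1 (without progenitor replicate 1 or neuron replicate 1, adjusted p = 0.0698 and 0.0533), STEAP3 (without progenitor replicate 2 or neuron replicate 2, 0.0556 and 0.0768) and SPARCL1 (without progenitor replicate 1, progenitor replicate 2 or neuron replicate 2, 0.139, 0.0597 and 0.207) were lost. The other 9 kept adjusted p below 0.05 without any 1 of the 4 libraries. At the other days 11 of the 12 had positive differences on all 3 days, and STEAP3 stood at −0.65 at day 40.

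It likewise gave 12 loci with the greatest excess in neurons. OSTN, the gene of the secreted peptide osteocrin, known from active primate neurons (chromosome 3, 191199241 to 191265615), had 0 and 0.599 kb in progenitors and 3.81 and 2.25 kb in neurons, with −2.50 ± 0.41 (adjusted p = 0.000645). CDH9, a neuronal cadherin gene (chromosome 5, 26880597 to 27038586), had 1.24 and 0.709 kb in progenitors and 5.25 and 3.73 kb in neurons, with −2.05 ± 0.38 (adjusted p = 0.00187). HS3ST2, a heparan sulfate sulfotransferase gene (chromosome 16, 22814162 to 22916338), had 1.66 and 2.49 kb in progenitors and 9.90 and 5.38 kb in neurons. SLC26A4, the anion exchanger gene pendrin (chromosome 7, 107660828 to 107717809), had 0.689 and 0.940 kb in progenitors and 4.83 and 3.71 kb in neurons, with −2.14 ± 0.25 (adjusted p = 3.74e-05). AUH, an RNA-binding mitochondrial hydratase gene (chromosome 9, 91213823 to 91361918), had 3.83 and 2.67 kb in progenitors and 12.9 and 7.95 kb in neurons. The hair keratin-associated gene KRTAP10-12 had 0 and 0.951 kb in progenitors and 5.35 and 2.72 kb in neurons, with −2.63 ± 0.43 (adjusted p = 0.000643). The remaining 6 were CR1L, LIPK, LIPM, NEB, IL19 and GUF1, with differences between −2.50 and −1.83.

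Of these 12, LIPK lost its call without progenitor replicate 1, neuron replicate 1 or neuron replicate 2 (adjusted p = 0.301, 0.106 and 0.0756). IL19 lost it without progenitor replicate 1 or neuron replicate 2 (0.163 and 0.0827), and NEB without progenitor replicate 1 (0.0694). On the other days CR1L turned to 1.38 at day 120, NEB to 0.69 at day 40, IL19 to 0.37 and GUF1 to 0.21 at day 120.

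**Figure D3:**
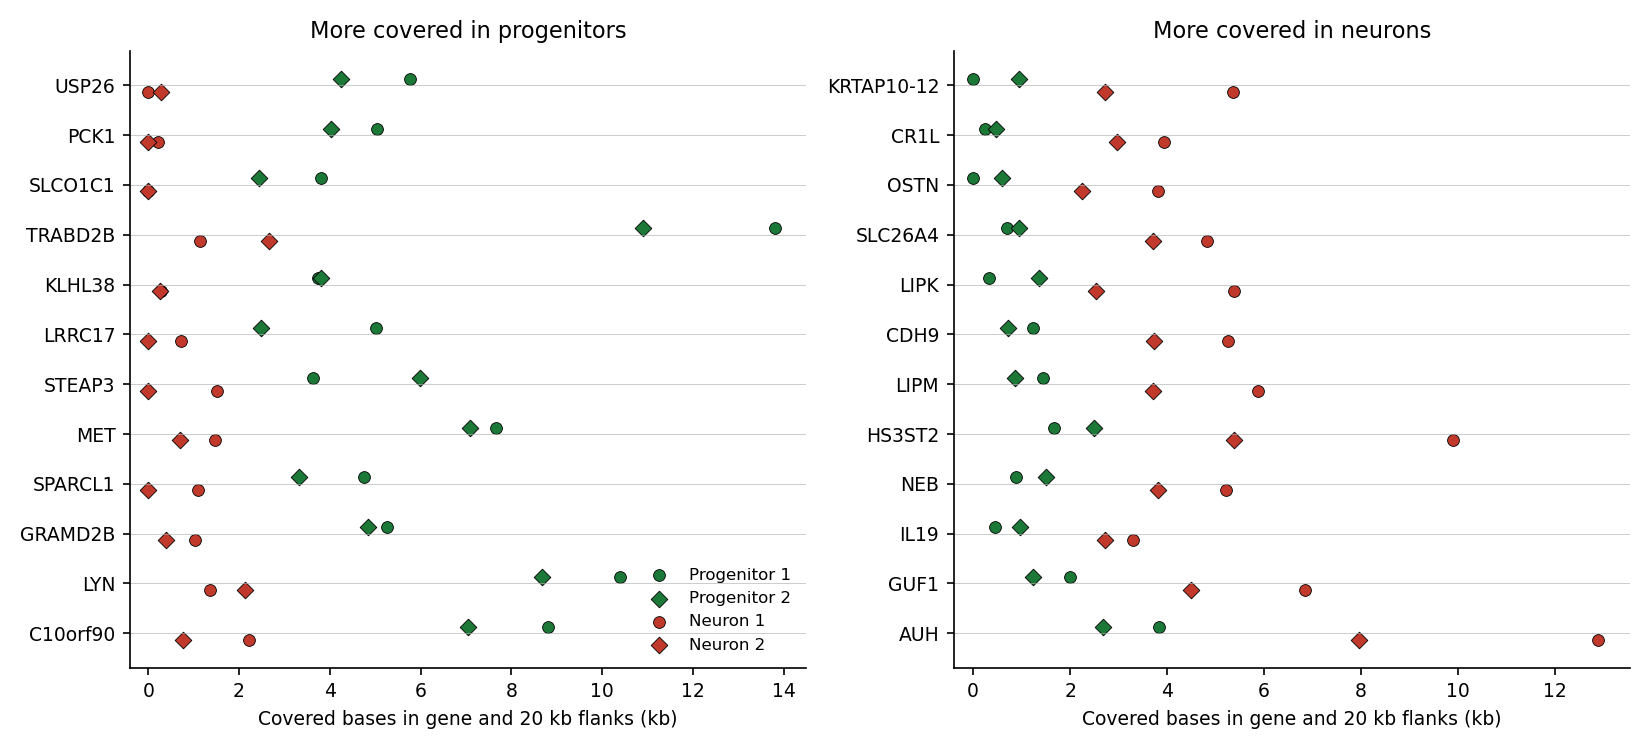
Covered bases (kb, horizontal axis) in the gene and 20 kb on either side for the 12 named loci with the greatest excess in progenitors (left panel) and in neurons (right panel), with 1 point per day 60 library, circles for replicate 1 and diamonds for replicate 2, green for progenitors and red for neurons. TRABD2B shows 13.8 and 10.9 kb in progenitors against 1.13 and 2.66 kb in neurons, and AUH 3.83 and 2.67 kb against 12.9 and 7.95 kb.

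Radial glia genes were the list with the highest median. Of 20 members, 6 were higher in progenitors and 0 in neurons, beside 2.68% and 3.35% of all loci, and the median difference was 0.47 beside −0.12 for all loci. The same 2 shares stand beside the counts of every list below, and no list count was tested against them. LIX1, a gene enriched in radial glia (chromosome 5, 97091867 to 97142611), had 8.58 and 7.27 kb in progenitors and 2.27 and 2.09 kb in neurons, with 1.37 ± 0.23 (adjusted p = 0.000847). FGFR3, a growth factor receptor gene, had 10.5 and 5.73 kb against 4.17 and 1.13 kb, with 1.30 ± 0.34 (adjusted p = 0.0242). The glial glutamate transporter gene SLC1A3 had 13.7 and 10.1 kb against 5.62 and 2.35 kb, with 1.27 ± 0.22 (adjusted p = 0.00112). SOX2, the Notch effector HES1 and the transcription factor gene DACH1 also passed. In 15 of the 20 members both progenitor values lay above both neuron values after scaling. Members below the threshold included VIM, with 7.88 and 5.38 kb in progenitors and 4.03 and 2.40 kb in neurons (0.67 ± 0.23, adjusted p = 0.0952), and PAX6, with 18 and 15 kb against 12.5 and 8.42 kb (0.37 ± 0.17, adjusted p = 0.227). NES, whose promoter window was open in progenitors alone, had a locus difference of 0.42 ± 0.23 (adjusted p = 0.322). FGFR3 lost its call without progenitor replicate 1 or neuron replicate 2 (adjusted p = 0.297 and 0.302), and LIX1 and SLC1A3 kept theirs without any 1 of the 4.

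Outer radial glia are basal progenitors that are abundant in human cortex. Of 10 members 2 were higher in progenitors and 0 in neurons, beside 2.68% and 3.35% of all loci. The median was 0.29, or 0.19 with equal list lengths. Negative differences were found at 4 members. At 3 of these, IL6ST (−0.67), ITGB5 (−0.42) and MOXD1 (−0.37), both neuron libraries lay above both progenitor libraries after scaling. FAM107A and ACSBG1, whose promoter windows were open in progenitors alone, had locus differences of 0.49 and 0.27 (limma adjusted p = 0.226 and 0.609). TNC, a matrix glycoprotein gene, had 7.52 and 6.19 kb in progenitors and 2.79 and 2.07 kb in neurons, with 1.05 ± 0.19 (adjusted p = 0.00203), and kept its call without any 1 of the 4 libraries. PTN, a growth factor gene, had 11.7 and 8.68 kb against 6.68 and 2.44 kb, with 0.92 ± 0.26 (adjusted p = 0.0327), and lost it without progenitor replicate 1, progenitor replicate 2 or neuron replicate 2 (0.246, 0.0855 and 0.364). The astroglia list had 1 of 11, SPARCL1, with 4.76 and 3.32 kb in progenitors and 1.10 and 0 kb in neurons, and a median of 0.28. In the cell cycle list 1 of 12 passed, the cyclin gene CCND1, with 6.16 and 4.85 kb against 2.38 and 1.57 kb (1.01 ± 0.24, adjusted p = 0.0120). CCND1 lost its call without progenitor replicate 1, progenitor replicate 2 or neuron replicate 1 (0.141, 0.0621 and 0.0578), and the list's median was −0.14, or 0.14 without scaling, near that of all loci in both cases.

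The Notch and Hippo-YAP lists held members on the progenitor side, but most members did not pass. The list medians were 0.29 and 0.13 beside −0.12 for all loci, and 0.61 and 0.01 beside −0.08 with equal list lengths. Negative differences were found at 5 of 13 Notch and 3 of 10 Hippo-YAP members. Among these, HEY1 (−0.54) and CCN1 (−0.43) did not pass, though both neuron libraries lay above both progenitor libraries after scaling. In the Notch list, a pathway that keeps neighbouring progenitors from differentiating, 2 of 13 members were higher in progenitors and 1 in neurons. Of all loci 2.68% and 3.35% were. The receptor gene NOTCH2 had 6.74 and 6.55 kb in progenitors and 3.67 and 2.03 kb in neurons, with 0.85 ± 0.22 (adjusted p = 0.0216), and lost its call without any 1 of the 4 libraries (0.0503 to 0.151). The coactivator gene MAML2 had 22.8 and 15.6 kb against 9.84 and 7.4 kb, with 0.82 ± 0.17 (adjusted p = 0.00413), and lost it without progenitor replicate 1 (0.118). RBPJ, the DNA-binding partner of Notch, had 13.8 and 12.5 kb in progenitors and 25.1 and 12.6 kb in neurons, which overlap in kilobases and separate only after scaling, with −0.71 ± 0.20 (adjusted p = 0.0337), lost without progenitor replicate 1, progenitor replicate 2 or neuron replicate 1 (0.181, 0.129 and 0.193). In the Hippo-YAP list, a pathway that limits growth, 2 of 10 were higher in progenitors, beside 2.68% of all loci. YAP1 (chromosome 11, 102110447 to 102233424) had 12.2 and 8.49 kb against 3.08 and 2.04 kb, with 1.54 ± 0.28 (adjusted p = 0.00191), and kept its call without any 1 of the 4. WWTR1, which encodes the related coactivator TAZ, had 13.0 and 11.5 kb against 7.83 and 4.45 kb, with 0.71 ± 0.19 (adjusted p = 0.0296), lost without any 1 of the 4 (0.0576 to 0.167).

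Intermediate progenitor and proneural genes were split, with 1 of 12 higher in progenitors, 0 in neurons and a median of 0.05, which was −0.20 with flanks of 5 kb. NEUROD4, a proneural factor gene, had 4.95 and 3.21 kb in progenitors and 1.28 and 0.922 kb in neurons, with 1.21 ± 0.28 (adjusted p = 0.0103). It lost the call without progenitor replicate 1 or neuron replicate 1 (0.170 and 0.0653). All 10 members with a promoter window had a peak there in all 4 libraries.

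No member of the pan-neuronal list passed in either direction, out of 16, and its median of −0.23 stood beside −0.12 for all loci and −0.34 for 10 housekeeping loci, of which 0 passed. The pan-neuronal median was 0.06 without scaling. The largest differences were those of INA, a neurofilament gene, with 2.21 and 1.86 kb in progenitors and 3.58 and 3.30 kb in neurons (−0.92 ± 0.30, adjusted p = 0.0641), and of the growth cone gene GAP43, with 8.99 and 7.34 kb in progenitors and 11.1 and 10 kb in neurons (−0.64 ± 0.20, adjusted p = 0.0532). Both neuron libraries lay above both progenitor libraries at these loci. The promoters of the 9 members with a window were open in 100% of cases in both progenitor libraries and in neuron replicate 1, and in 88.9% in neuron replicate 2. Promoter peaks of these neuronal genes were thus present in both progenitor libraries.

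Glutamate receptor genes held the largest group on the neuron side, with 3 of 12 members higher in neurons, 0 in progenitors and a median of −0.30, or −0.02 without scaling, where the median of all loci was 0.16. GRIA2, an AMPA receptor gene, had 3.54 and 2.48 kb in progenitors and 9.70 and 3.22 kb in neurons, with −1.11 ± 0.27 (adjusted p = 0.0128). The kainate receptor gene GRIK1 (chromosome 21, 29536933 to 29939996) had 6.55 and 5.56 kb in progenitors and 13.5 and 7.95 kb in neurons, with −1.02 ± 0.18 (adjusted p = 0.00118). GRIK2, its relative, had 12.6 and 11.6 kb in progenitors and 19.6 and 11.6 kb in neurons, with −0.59 ± 0.18 (adjusted p = 0.0494). In kilobases GRIA2 and GRIK2 overlap between the populations, and they separate only after scaling to the shorter list of neuron replicate 2. Progenitor-only and neuron-only regions numbered 1 and 0 at GRIA2, 1 and 5 at GRIK1, and 9 and 9 at GRIK2. GRIK1 kept its call without any 1 of the 4 libraries. GRIA2 lost it without progenitor replicate 1, progenitor replicate 2 or neuron replicate 1 (0.0542, 0.119 and 0.175), and GRIK2 without any 1 of the 4 (0.113 to 0.246).

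Among synaptic vesicle genes 2 of 16 were higher in neurons and 0 in progenitors, beside 3.35% and 2.68% of all loci. The list's median of −0.17 turned to 0.12 without scaling. SYT4, a synaptotagmin gene, had 1.78 and 1.01 kb in progenitors and 3.31 and 2.92 kb in neurons, with −1.25 ± 0.29 (adjusted p = 0.00951), lost without progenitor replicate 2 or neuron replicate 2 (0.128 and 0.103). SYN2, the gene of synapsin II, had 5.66 and 4.0 kb in progenitors and 11.4 and 6.94 kb in neurons, with −1.12 ± 0.27 (adjusted p = 0.0127), lost without any 1 of the 4 (0.0527 to 0.121). No ion channel gene of 12 passed, and neither did any of 13 cortical neuron differentiation factors or of 9 subunits of the progenitor and neuronal BAF remodelling complexes. Their medians were −0.29, −0.28 and −0.26, and −0.01, 0.0 and 0.02 without scaling. The widest of these differences was that of DPF1, a subunit of the neuronal complex, with 5.24 and 3.07 kb in progenitors and 7.55 and 4.11 kb in neurons, which overlap in kilobases (−0.71 ± 0.22, adjusted p = 0.0512).

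Genes of cortical layers went both ways. In the deep-layer list 1 of 10 was higher in progenitors and 2 in neurons, beside 2.68% and 3.35% of all loci. FOXP2, a transcription factor gene of deep layers (chromosome 7, 114086327 to 114693765), had 23.4 and 18.3 kb in progenitors and 10.2 and 9.63 kb in neurons, with 0.74 ± 0.17 (adjusted p = 0.0106) and 12 progenitor-only regions against 0. TBR1, a factor of early-born layer neurons, had 6.0 and 3.22 kb in progenitors and 8.13 and 5.09 kb in neurons, which overlap in kilobases and separate only after scaling, with −0.78 ± 0.23 (adjusted p = 0.0444). ZFPM2 had 24.2 and 15.7 kb in progenitors and 47.4 and 25.5 kb in neurons, with −1.10 ± 0.24 (adjusted p = 0.0064). FOXP2 lost its call without progenitor replicate 1 or neuron replicate 1 (0.142 and 0.132), ZFPM2 without progenitor replicate 2 or neuron replicate 1 (0.103 and 0.0683), and TBR1 without progenitor replicate 2, neuron replicate 1 or neuron replicate 2 (0.433, 0.122 and 0.153). In the upper-layer list 1 of 10 passed, RORB, a nuclear receptor gene, with 10.6 and 8.76 kb in progenitors and 5.50 and 3.70 kb in neurons (0.73 ± 0.20, adjusted p = 0.0262), lost without any 1 of the 4 (0.0805 to 0.189).

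Axon guidance genes were also split, with 2 of 15 members higher in each population, beside 2.68% of all loci in progenitors and 3.35% in neurons. The list's median was −0.01, or 0.28 without scaling. The netrin receptor gene UNC5C had 23.2 and 21.6 kb in progenitors and 12.7 and 10.1 kb in neurons, with 0.67 ± 0.16 (adjusted p = 0.0103), and 11 progenitor-only regions against 2 neuron-only. The semaphorin receptor gene NRP1 had 17 and 13.6 kb in progenitors and 11.1 and 5.90 kb in neurons (0.58 ± 0.17, adjusted p = 0.0431). The ligand gene SEMA3A had 14.5 and 11.2 kb in progenitors and 20.4 and 16.4 kb in neurons (−0.79 ± 0.18, adjusted p = 0.0107). The ephrin receptor gene EPHB1 had 20.6 and 18.0 kb in progenitors and 32.2 and 16.3 kb in neurons, which overlap in kilobases (−0.53 ± 0.16, adjusted p = 0.0480). Population-only regions did not always follow these calls. SEMA3A had 10 progenitor-only and 7 neuron-only regions, EPHB1 8 and 8, and NRP1 7 and 1. UNC5C was lost without progenitor replicate 1, progenitor replicate 2 or neuron replicate 1 (0.0747 to 0.0897), NRP1 without progenitor replicate 1, progenitor replicate 2 or neuron replicate 2 (0.287, 0.115 and 0.258), SEMA3A without progenitor replicate 2 or neuron replicate 2 (0.112 and 0.127), and EPHB1 without progenitor replicate 1, progenitor replicate 2 or neuron replicate 1 (0.203, 0.190 and 0.244).

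Few markers of other cell types passed, but most of their list medians lay above the −0.12 of all loci. The medians were 0.27 for posterior, 0.17 for cortical hem and choroid plexus, 0.12 for oligodendrocyte, 0.09 for ventral and GABAergic and 0.05 for pluripotency genes, and −0.08 for mesenchymal, endothelial and microglial genes. The oligodendrocyte median was −0.06 with equal list lengths, and the mesenchymal, endothelial and microglial one 0.20 without scaling. With outer radial glia at 0.29, the posterior list thus lay near a progenitor list, and 8 of its 9 members had positive differences. Of 14 mesenchymal, endothelial and microglial genes 1 was higher in neurons, CDH5, with 1.13 and 1.23 kb in progenitors and 3.46 and 2.05 kb in neurons (−1.20 ± 0.34, adjusted p = 0.0370), and 0 in progenitors. Their summed coverage was 29.8 and 27.1 kb in progenitors and 30.3 and 19.6 kb in neurons. In the ventral and GABAergic list 1 of 11 was higher in progenitors, GSX2, a ventral progenitor factor gene, with 6.57 and 4.72 kb against 2.88 and 1.59 kb (0.91 ± 0.23, adjusted p = 0.0165). In the cortical hem and choroid plexus list 1 of 10 was, the transport protein gene TTR, with 3.55 and 3.70 kb against 1.45 and 1.21 kb (0.89 ± 0.26, adjusted p = 0.0394). In the pluripotency list 1 of 7 was, DPPA4, with 2.02 and 2.17 kb against 0.219 and 0 kb (1.83 ± 0.48, adjusted p = 0.0225). No oligodendrocyte gene of 8 and no posterior gene of 9 passed, and the posterior genes had summed coverage of 52.8 and 33.6 kb in progenitors and 41.0 and 17.3 kb in neurons. GSX2 lost its call without progenitor replicate 1, progenitor replicate 2 or neuron replicate 2 (0.200, 0.0505 and 0.0892), TTR without progenitor replicate 1, progenitor replicate 2 or neuron replicate 1 (0.141, 0.243 and 0.175), and CDH5 and DPPA4 without any 1 of the 4 (0.103 to 0.247 and 0.0797 to 0.139). Whether other cell types in the sorted fractions had a part in these differences was not tested.

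**Figure D4:**
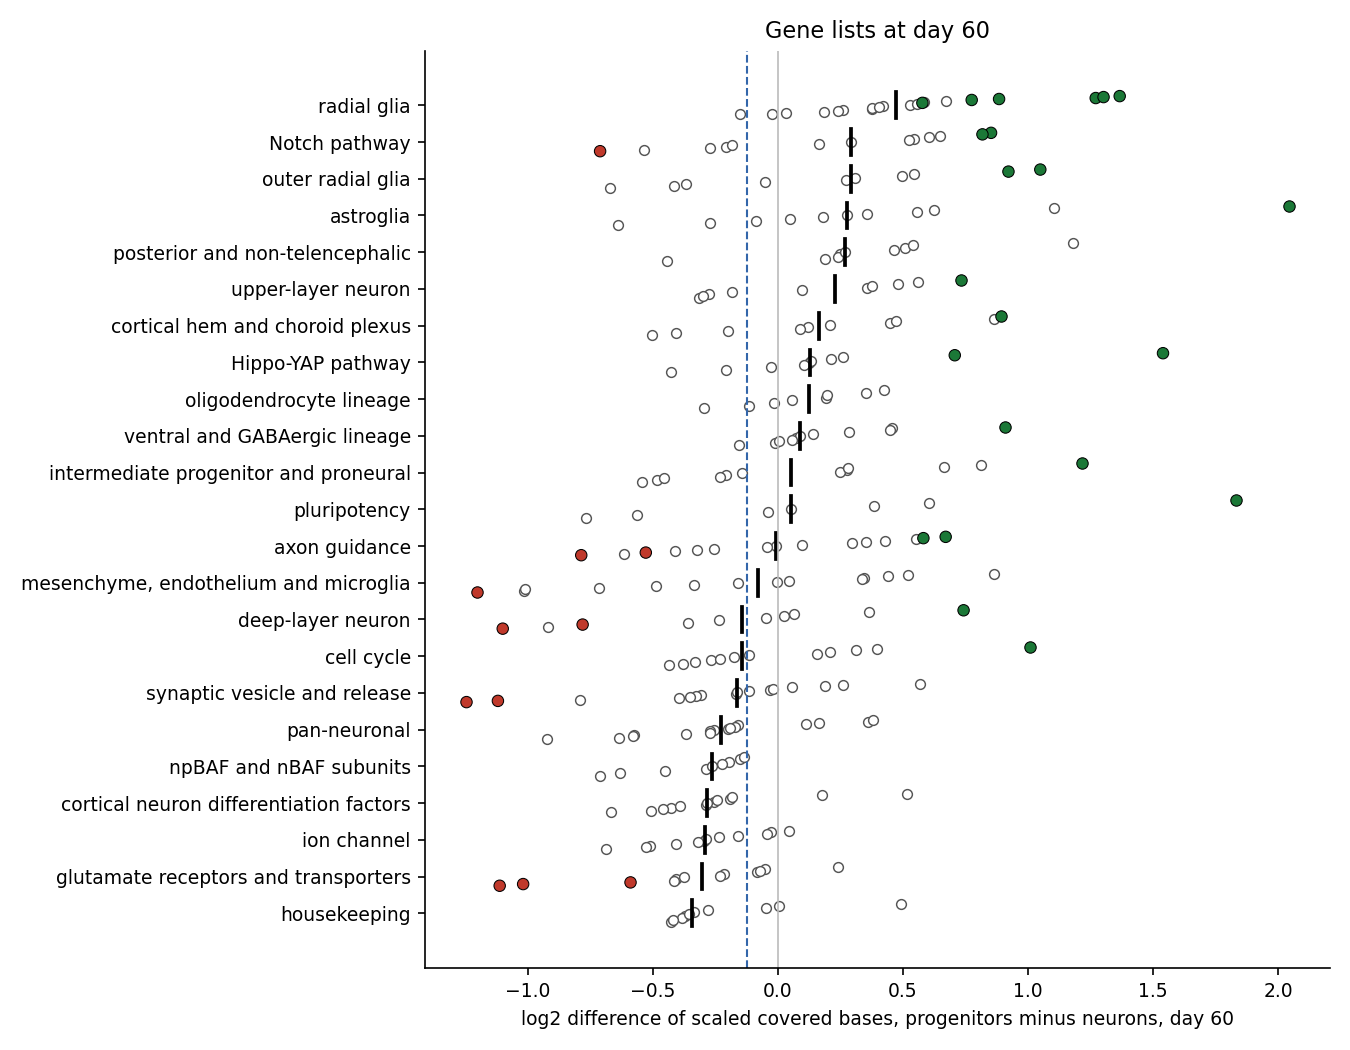
Day 60 log2 difference of scaled covered bases, progenitors minus neurons (horizontal axis), for the members of 23 gene lists, with filled green and red points for members higher in progenitors and in neurons at adjusted p below 0.05, open points for the rest, black bars for list medians, a grey line at 0 and a dashed blue line at the median of all loci, −0.12. Radial glia stand at the top with 6 filled points and a median of 0.47, and housekeeping loci at the bottom with 0 filled points and a median of −0.34, next to glutamate receptors and transporters with 3 filled points and a median of −0.30.

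The day 60 differences were followed in the other days, which share no library with day 60. Across 18755 loci, the day 60 difference correlated with that of day 40 at 0.330, of day 90 at 0.645 and of day 120 at 0.371, values across loci that are not independent of each other. Of the 503 loci higher in progenitors at day 60, 368 (73.2%) had a positive difference on all 3 other days, as did 16.9% of all loci. Of the 629 loci higher in neurons, 376 (59.8%) had a negative difference on all 3, as did 17.3% of all loci. The called progenitor loci had a median of 1.04 at day 60, 0.54 at day 40, 0.64 at day 90 and 0.50 at day 120. For the called neuron loci the medians were −1.05, −0.32, −0.63 and −0.40 on the same days. Called loci were long genes, with medians of 82.1 kb on the progenitor side and 78.9 kb on the neuron side against 26.6 kb for all loci, and whether length had a part was not tested.

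A departure of the day 60 difference from the mean of the other 3 days passed at 5 loci (0.0267%), while 1572 had an unadjusted p below 0.05. At all 5 the progenitor-minus-neuron difference was higher at day 60, and the contrast does not tell which population moved. AGBL1, a tubulin deglutamylase gene (chromosome 15, 86079620 to 87031476), had 26.9 and 20.2 kb in day 60 progenitors and 11.9 and 5.11 kb in day 60 neurons, with 20 progenitor-only regions against 3. Its difference was 0.05 at day 40, 1.23 at day 60, 0.28 at day 90 and −0.59 at day 120. NKAIN3, a gene for a sodium pump partner, had 35.8 and 27.8 kb against 11.8 and 8.47 kb, with 0.32, 1.33, 0.41 and 0.20 from day 40 to day 120. WIPF1, an actin regulator gene, had 5.79 and 4.26 kb against 2.12 and 0.653 kb, with −0.47, 1.37, −0.14 and −0.34. CNGB3, a cyclic nucleotide channel subunit gene, had 4.36 and 3.96 kb against 2.32 and 1.27 kb, with −0.28, 0.77, −0.84 and −0.59. HS6ST3, a heparan sulfate sulfotransferase gene, had 16.1 and 14.3 kb against 13.7 and 7.84 kb, and its day 60 difference of 0.24 ± 0.19 did not pass by itself (adjusted p = 0.512), while the other days stood at −0.75, −0.74 and −1.39. The count was 0 without scaling, 0 with scaling to the median locus and 0 with a pseudocount of 100 bases. It was 0, 3, 10 and 2 without progenitor replicate 1, progenitor replicate 2, neuron replicate 1 and neuron replicate 2, so these calls rest on the choice of scale and on single libraries.

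**Figure D5:**
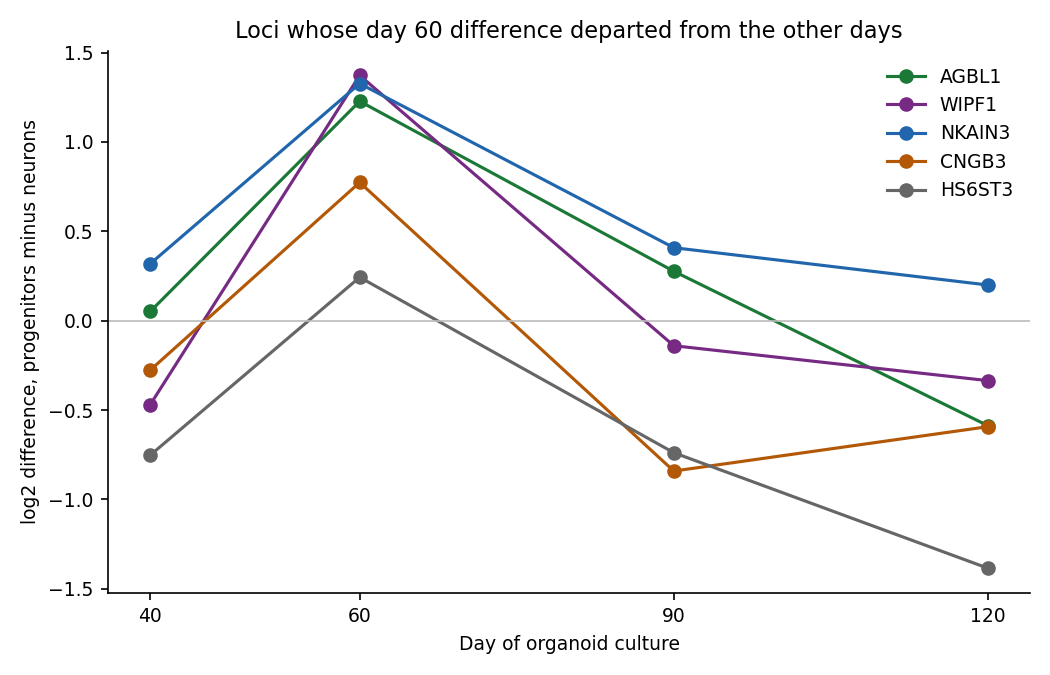
Log2 difference of scaled covered bases, progenitors minus neurons (vertical axis), at days 40, 60, 90 and 120 (horizontal axis) for the 5 loci whose day 60 difference departed from the mean of the other days. Each line peaks at day 60, where AGBL1 stands at 1.23 and HS6ST3 at 0.24.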

How the data were processed

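ATAC-seq broad peaks were compared between 2 progenitor and 2 neuron libraries of day 60, with the 12 libraries of the other days in the same fit. The submitters' processing notes name MACS2 2.1.2, BWA 0.7.17, SAMtools 1.9, Picard and Trim Galore 0.5.0, with hg38 as the build. How duplicates, mitochondrial reads and the Tn5 offset were handled is not given in the sources used here. Each deposited list gives a score, the authors' fold enrichment as a ratio, and −log10 p and −log10 q per peak. These are the authors' values and served only to rank or filter peaks within a list. Lists were called per library, with a lowest −log10 q of 1.00 to 1.01. They hold no read numbers, so depth is unknown and list length may move with it.

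Only chromosomes 1 to 22 and X were kept, at a cost of 95 to 245 peaks per day 60 list. Peaks of the 4 lists that overlapped by 1 base or more were merged, and a region, promoter window or hairpin counted as present in a library when 1 base of a peak fell in it. The RefSeq tables (GRCh38.p14, the coordinates of hg38) gave 19974 protein-coding genes, promoter windows for 15812 of them and 1558 hairpins, with no exons. No promoter window lay on chromosome 8. All 270 entries of 23 gene lists matched, 1 by an older symbol, and 2 other list genes are not reported here.

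Locus coverage was log2 of covered bases plus 500, minus log2 of the library's covered bases, for loci with at least 500 bases in at least 2 libraries. Windows of neighbouring genes overlap, and the scaled value of a locus without peaks is higher where the list is shorter. limma 3.58.1 in R 4.3.3 fitted 8 group means over 16 libraries with a trend, two-sided, with Benjamini-Hochberg adjustment and a threshold of 0.05. The departure contrast was the day 60 difference minus the mean of the other 3. The fit was tested on simulated data. Replicate numbers were not treated as pairs. Equal list lengths in the locus fits meant the 67977 strongest peaks of each of the 16 lists. For region counts they meant the 80345 strongest peaks of each of the 4 day 60 lists.

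Named loci were those behind the sort, the 12 with the largest difference in each direction past the threshold, with populations that do not overlap and at least 3 kb in the higher one, up to 4 called members per list and direction or else the 2 largest, the 6 strongest regions per population and 1 per list, and up to 5 departures in each direction. The comparison, the lists and these rules were chosen with earlier results of these data known.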

Additional observations from a re-analysis of the deposited data

Results flagged for a closer look

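At 5 loci the populations had a progenitor-minus-neuron difference at day 60 that differed from the mean of the other 3 days by the test of that contrast itself (limma, adjusted p below 0.05, all positive). The day 60 difference minus the mean of the others was 1.31 at AGBL1 (adjusted p = 0.0243), 1.69 at WIPF1 (0.0312), 1.02 at NKAIN3 (0.0312), 1.34 at CNGB3 (0.0486) and 1.20 at HS6ST3 (0.0486). Leaving out 1 day 60 library took the call from AGBL1 without progenitor replicate 1 or neuron replicate 2 (0.269 and 0.152) and from WIPF1 without progenitor replicate 1, progenitor replicate 2 or neuron replicate 2 (0.269, 0.061 and 0.219). NKAIN3, CNGB3 and HS6ST3 lost it without any 1 of the 4 (up to 0.304, 0.269 and 0.269).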

How the results depend on the processing

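Counts of called loci are given as higher in progenitors, higher in neurons and departing from the other days, against 503, 629 and 5 as reported. They were 108, 20 and 0 without scaling, 682, 401 and 0 with scaling to the median locus, 923, 1045 and 3 with equal list lengths, 649, 732 and 13 with −log10 q of at least 2, 523, 519 and 0 with a pseudocount of 100 bases, and 186, 368 and 18 with one of 2000. Without 1 day 60 library they ranged over 131 to 379, 146 to 472 and 0 to 10, in a fit where the lone sample is assumed to vary like the other groups. The replicate block gave 666, 907 and 32. Same-numbered libraries had deviations that correlated at −0.123, 0.214, 0.064 and 0.157 from day 40 to day 120. These values cannot tell whether the numbers pair the samples.

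Without 1 library, progenitor-only and neuron-only counts were 36451 to 63507 and 19004 to 49586 for regions, 728 to 897 and 108 to 168 for promoters, and 51 to 83 and 15 to 58 for hairpins. Some rise is built in, since 1 library less has to hold or to lack a peak. Alternatives for promoters and hairpins were chosen after seeing the data. The carry-over difference was 63.7 to 76.6 points without 1 day 60 library and 78.2 to 88.1 under the other settings, with exact p = 0.00216 in each. The Jaccard index within populations exceeded the mixed pairs by 0.191 as reported, 0.232 with equal lengths and 0.211 with −log10 q of at least 2. Directions turned for SYN1 (0.25 without scaling, 0.093 with the median locus, 0.17 with equal lengths, 0.28 with 5 kb flanks, 0.0020 with 100 bases, and −0.24 to 0.18 without 1 library), PPP1R12C (−0.66 to 0.019 without 1 library), HOXB4 (−0.38 to 1.46 without 1 library) and PPIA (−0.056 with equal lengths, −0.22 with −log10 q of at least 2), and none of these had passed. The cause was not tested. Of 59 named calls, none turned, and 15 held without scaling, 43 with the median locus, 48 with equal lengths, and 28 to 36 without 1 library. In simulated data 37 of 100 loci changed by 1 were recovered. The values were drawn from a normal distribution around fitted group means with the fitted SD. Such draws do not imitate loci where a list has no peak.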
